A study of Homo sapiens with 8 samples.

Results

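The genes described here build ribosomes or transcribe ribosomal RNA, and 45 of them were found in each of 2 count tables made from human lung cancer cell lines. They are the protein-coding entries whose symbol begins with UTP, NOP, NOL or RRP followed by a digit, together with the RNA polymerase I subunits POLR1A to POLR1H. For a symbol with several entries, the one with the highest count was used. The NCI-H1944 table lists 46427 genes in all and the NCI-H647 table lists 61271. The rule reads symbols and, between entries of the same symbol, the count, and it uses no difference between treated and control libraries.

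The study measured RNA by sequencing after a pulse of an inhibitor of MPS1, the mitotic checkpoint kinase encoded by TTK. NCI-H1944 and NCI-H647 are established lung cancer lines, both labelled wild type, and each had 2 libraries treated with BAY-1217389 (the MPS1 inhibitor) at 100 nM and 2 treated with the solvent DMSO. Treatment lasted 48 hours, the drug was then washed out, and RNA was taken after another 24 hours of culture, so all 8 libraries come from the time after washout. The NCI-H1944 libraries were made from poly(A) RNA and the NCI-H647 libraries from RNA depleted of ribosomal RNA, with another kit, so line and library preparation cannot be told apart. Whether replicates were separate cultures is not stated, and the p-values therefore reflect only how far these particular libraries spread, which could be technical spread. Levels are CPM, counts relative to the TMM-scaled library total, and a gene is said to have risen or fallen where edgeR's quasi-likelihood test gave a Benjamini-Hochberg adjusted p under 0.05 over all genes of that table.

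The NCI-H1944 libraries held between 38904473 and 43661342 counts each, and the shallower NCI-H647 libraries between 13358514 and 19550859. Among epithelial markers, KRT8 averaged 2203 CPM and KRT18 1582 CPM in the NCI-H1944 controls, while KRT19, KRT5, NKX2-1 and SFTPB had no count in any of its libraries. In NCI-H647, KRT8 averaged 240.2 CPM and KRT18 256.6 CPM, and KRT5 alone of the 10 epithelial markers had no count in any library. The other markers were low there. CDH1 had 3 to 9 counts per library, NAPSA 0 to 3 and SFTPB 0 to 1, and these were not tested. NKX2-1 had 20 to 37 counts, TP63 32 to 38, EPCAM 60 to 94 and KRT19 131 to 165. The summed level of those 10 was 3825 to 3849 CPM in control and 4464 to 4592 CPM in treated NCI-H1944 libraries. In NCI-H647 it was 495.4 to 513.9 CPM in control and 410.3 to 422.3 CPM in treated libraries. These and the marker sums below are not scaled by TMM. KRT8 rose by 0.29 on the log2 scale in NCI-H1944 (edgeR adjusted p = 2.27e-09) and fell by 0.41 in NCI-H647 (edgeR adjusted p = 4.49e-07), and the difference between the lines was -0.73 (edgeR adjusted p = 8.74e-11). Of the 6 epithelial markers tested in each line, 2 rose and 0 fell in NCI-H1944. In NCI-H647, 2 fell and 1 rose, KRT19 (0.35, edgeR adjusted p = 0.0265), and the median of the 6 was 0.16. The summed level of 7 leukocyte and erythroid markers was 2.80 to 2.85 CPM in control and 5.06 to 5.74 CPM in treated NCI-H1944 libraries, with PTPRC at 0, and 0.972 to 1.04 CPM and 2.62 to 3.10 CPM in NCI-H647, with HBB at 0. For 8 fibroblast and endothelial markers the sums were 30.6 to 34.2 CPM and 47.4 to 48.0 CPM in NCI-H1944, with COL1A2 at 0, and 62.3 to 68.3 CPM and 51.7 to 56.2 CPM in NCI-H647. The part of these markers in the results was not tested.

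RNA polymerase I transcribes the ribosomal DNA repeats in the nucleolus into one long precursor RNA. The UTP and several NOP, NOL and RRP proteins assemble on that precursor as the small-subunit (SSU) processome, which shapes the 40S subunit, while others fold, cut and export the precursor of the 60S subunit. Small nucleolar ribonucleoproteins (snoRNPs) guide chemical modification of the RNA, and cancer cells that grow fast are known for high demand on the whole route.

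The promoters of these genes were read from RefSeq's table for GRCh38.p14, which spans 250 bases before to 50 bases after each start and matched 39 of the 45. POLR1E, NOP58, RRP1B, RRP12, NOL10 and UTP23 had no entry. The E-box CACGTG, the sequence that MYC and MAX bind, was searched on both strands and lay in 13 of the 39 promoters (33.3%), against 8.95% of 15515 protein-coding promoters of the same length. The motif CCGGAAG, which ETS-family factors bind, was also in 13 of 39 (33.3%), against 14.4%, and TTTGAA was in 2 of 39 (5.13%), against 12.1%. Sites of different motifs among these cannot share bases. By outcome in NCI-H647, CACGTG lay in 3 of 8 promoters of genes that rose (37.5%), 4 of 14 of genes that fell (28.6%) and 6 of 15 of tested genes that did neither. The 15515 promoters include those of genes too low to be tested, since 13738 protein-coding genes were tested in NCI-H1944. They are therefore not matched to the members for level. A match is a description and not evidence of binding. The 120 bases before the start are printed for 3 genes that carry the E-box there and had different outcomes, with the E-box in capitals. UTP20 (chr12:101279985-101280104, plus strand) rose in NCI-H1944 and fell in NCI-H647, POLR1G (chr19:45406524-45406643, plus strand) passed the test in NCI-H647 alone, where it fell, and UTP18 (chr17:51260426-51260545, plus strand) passed the test in neither line.
UTP20: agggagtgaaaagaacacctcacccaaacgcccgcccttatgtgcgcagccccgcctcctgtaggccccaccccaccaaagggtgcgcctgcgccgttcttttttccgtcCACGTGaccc
POLR1G: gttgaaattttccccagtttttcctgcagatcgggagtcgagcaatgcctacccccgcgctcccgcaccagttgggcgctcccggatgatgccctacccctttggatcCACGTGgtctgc
UTP18: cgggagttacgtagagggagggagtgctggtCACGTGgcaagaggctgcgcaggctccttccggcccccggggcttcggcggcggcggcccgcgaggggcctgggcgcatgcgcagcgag
The first base of the E-box lay 10 bases before the start in UTP20, 12 bases before it in POLR1G and 89 bases before it in UTP18, which holds another E-box just after the start, outside the printed bases.

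In NCI-H1944 the genes moved little and in both directions. Of 45 tested, 5 rose and 5 fell, or 22.2%, where 26.0% of all 16738 genes tested were called. Their median log2 fold change was -0.03, against 0.00 for all genes, and none of the called genes reached a 1.5-fold change, where 1.03% of all genes fell and 5.10% rose by at least that much. UTP6, NOP10, RRP7A, UTP20 and UTP25 rose by 0.14 to 0.21 on the log2 scale, and NOP53, POLR1E, RRP1B, POLR1D and NOP14 fell. Treated and control libraries did not overlap for 28 of the 45, 16 of them lower after the inhibitor, where 61.0% of all genes did not overlap. Without the inhibitor-treated replicate 1, the count of called genes dropped to 6, with 1 higher, and with no filter on low counts it was 5, with 1 higher. Scaling by library totals gave 3 higher and 6 lower.

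In NCI-H647 more of the genes moved and most of those were lower. Of 43 tested, 10 rose and 18 fell, or 65.1%, where 54.4% of all 15049 genes and 58.3% of protein-coding genes were called. By direction, 27.3% of all genes rose and 27.0% fell. The median log2 fold change was -0.11, against 0.01 for all genes. UTP20 and POLR1E fell by more than 1.5-fold and no member rose that far, while 8.14% of all genes fell and 11.1% rose by at least that much. The groups did not overlap for 35 of the 43, 23 of them lower after the inhibitor, against 76.3% of all genes. The median was nearer 0 without DMSO replicate 1 (-0.08), without DMSO replicate 2 (-0.07) and without the inhibitor-treated replicate 1 (-0.06). Under library totals it was -0.06, but that scaling shifts all genes of the table alike. MYC, for example, went from -0.00017 to 0.048, so this shift is not particular to the members. UTP14C had no count in any NCI-H647 library, which allows up to 0.153 to 0.225 CPM (here not scaled by TMM). NOL4 had 1 count in each treated library and none in the controls, so neither gene was tested there.

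**Figure D1:**
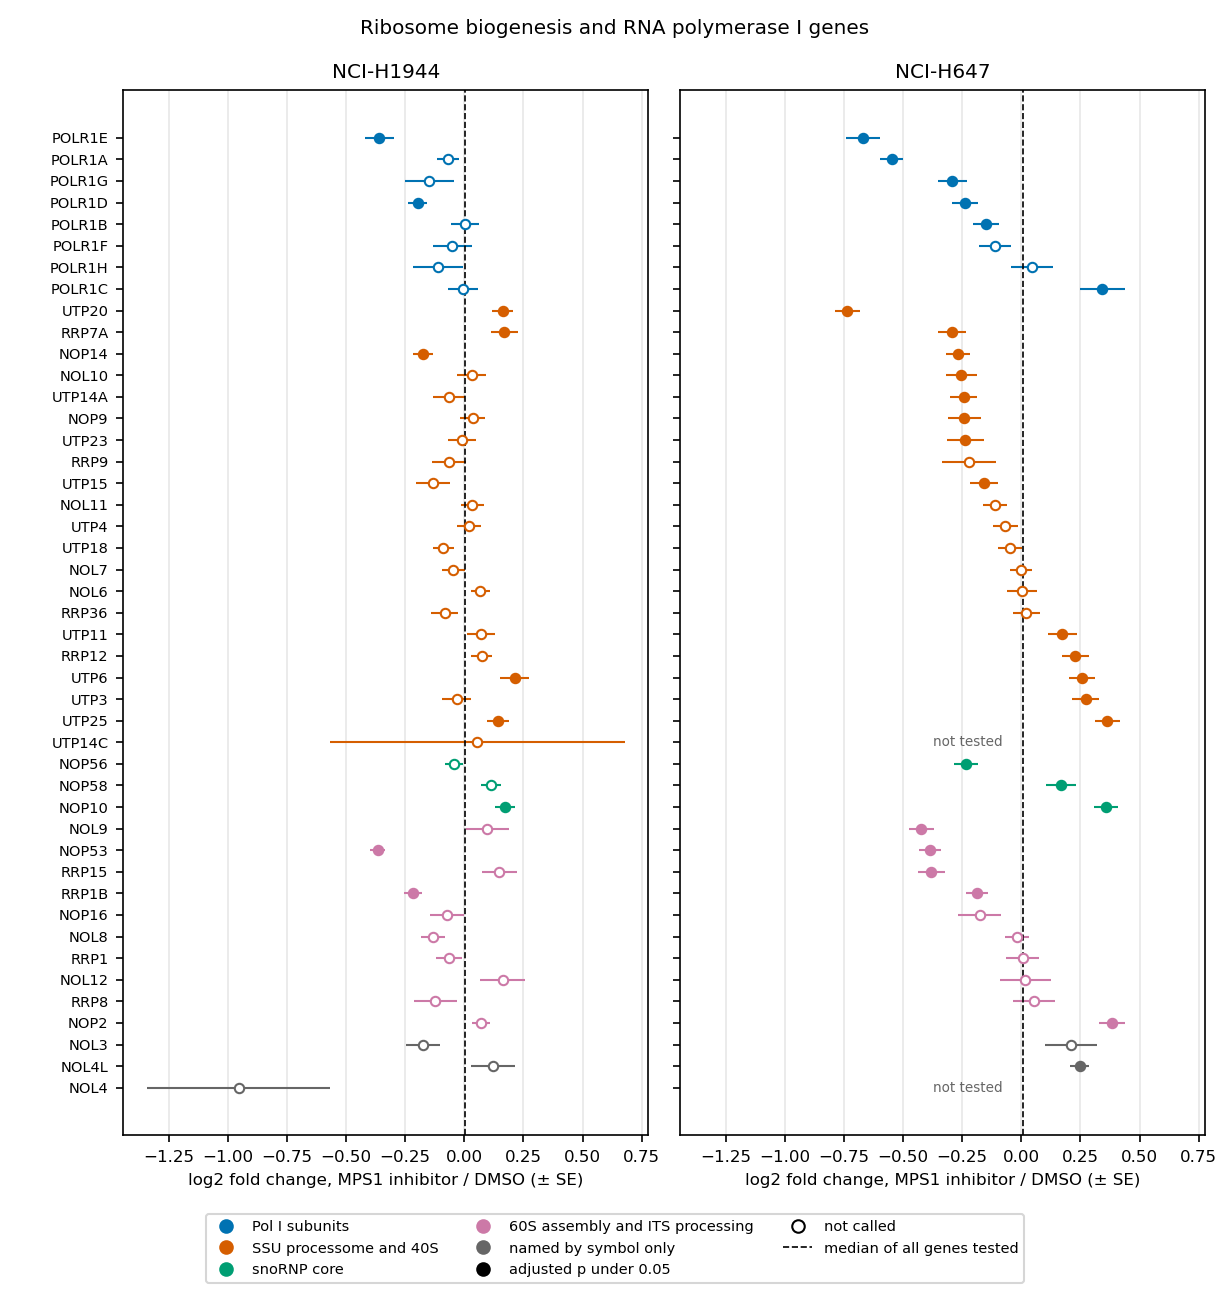
Log2 fold change of the inhibitor against DMSO (x axis) with its standard error for each gene (y axis), grouped by role, in NCI-H1944 (left) and NCI-H647 (right), on the same scale. Filled points passed an adjusted p of 0.05, and the dashed line is the median of all genes tested. In NCI-H1944, NOL4, a gene at about 1 CPM, lies farthest to the left, followed by NOP53 at -0.37 and POLR1E at -0.36. In NCI-H647, POLR1E and UTP20 lie farthest to the left.

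As a share of all reads, the 45 genes together made up 2418 and 2401 CPM (here not scaled by TMM) in the NCI-H1944 controls and 2284 and 2310 after the inhibitor. NOP53 alone held 14.2% and 14.5% of those counts in controls and 11.3% and 11.8% after the inhibitor, and without it the sums were 2076 and 2053 against 2025 and 2038. In NCI-H647 the sums were 2521 and 2521 in controls and 2500 and 2459 after the inhibitor. Without UTP11, the gene with the most counts there, they were 2349 and 2350 against 2283 and 2276. Both treated sums lay below both control sums in each line, by small amounts. In these bulk samples, fewer cells of a kind and less RNA per cell cannot be told apart.

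Of the 8 RNA polymerase I subunits, POLR1E and POLR1D fell in NCI-H1944 and none rose. In NCI-H647, POLR1E, POLR1A, POLR1G, POLR1D and POLR1B fell and POLR1C rose. These are 25% and 75% of the 8, beside 26.0% and 54.4% of all genes, so the NCI-H1944 share was near that of all genes. The median log2 fold change of the 8 was -0.09 in NCI-H1944 and -0.19 in NCI-H647.

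POLR1E, which with POLR1G forms the heterodimer specific to this polymerase, lies on chromosome 9 at 37485948 to 37503697 (GRCh38). In NCI-H1944 it measured 34.6 and 35.5 CPM in controls and 27.0 and 27.7 CPM after the inhibitor. In NCI-H647 it measured 32.4 and 31.9 CPM in controls and 19.1 and 21.4 CPM after the inhibitor. Both treated libraries were below both controls in each line, with no overlap. Its log2 fold change was -0.36 ± 0.06 (SE, n = 2 per group, edgeR adjusted p = 0.000301) in NCI-H1944 and -0.67 ± 0.07 (edgeR adjusted p = 1.42e-06) in NCI-H647, a 1.28-fold and a 1.59-fold decrease.

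POLR1A, the largest subunit and part of the catalytic centre, behaved differently between the lines. It measured 63.4 and 62.5 CPM in NCI-H1944 controls and 59.3 and 60.8 CPM after the inhibitor, and 119.97 and 120.5 CPM in NCI-H647 controls and 81.4 and 83.0 CPM after it. The groups did not overlap in either line, but the gap was narrow in NCI-H1944 and wide in NCI-H647. The log2 fold change was -0.07 ± 0.05 (edgeR adjusted p = 0.304) in NCI-H1944 and -0.55 ± 0.05 (edgeR adjusted p = 1.61e-07) in NCI-H647. The difference between the lines, -0.50 ± 0.06 on the log2 scale, passed the interaction test (edgeR adjusted p = 1.31e-06).

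POLR1D and POLR1C form the assembly platform that RNA polymerase I shares with RNA polymerase III, and they did not move alike in NCI-H647. POLR1D measured 102.9 and 97.3 CPM against 87.4 and 87.2 CPM in NCI-H1944, and 74.4 and 70.4 CPM against 62.6 and 60.1 CPM in NCI-H647. Treated libraries were lower in both lines without overlap, and the log2 fold changes were -0.20 ± 0.04 (edgeR adjusted p = 0.00182) and -0.24 ± 0.05 (edgeR adjusted p = 0.00157). POLR1C measured 29.8 and 31.6 CPM against 30.6 and 30.6 CPM in NCI-H1944, where the groups overlapped, and 18.3 and 16.98 CPM against 24.5 and 20.2 CPM in NCI-H647, where both treated libraries were higher. Its log2 fold change in NCI-H647 was 0.34 ± 0.09 (edgeR adjusted p = 0.00651), a call lost without the inhibitor-treated replicate 1, in DESeq2 and with no filter. POLR1C overlaps YIPF3 and XPO5 on the opposite strand, whose counts in NCI-H647 were 259.4% and 429.1% of its own. YIPF3 rose there by 0.39 on the log2 scale. The strand setting of the counting is not given in the sources used here, so the value of POLR1C is uncertain.

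POLR1G fell in NCI-H647 by 0.29 on the log2 scale (edgeR adjusted p = 0.000859), from 35.5 and 37.0 CPM to 28.7 and 30.5 CPM. It overlaps ERCC1 on the opposite strand, with 345.7% of its counts and a log2 fold change of -0.16, and is uncertain for the same reason. POLR1B, the second-largest subunit, had a log2 fold change of -0.15 ± 0.05 in NCI-H647 (edgeR adjusted p = 0.0304), which was lost without DMSO replicate 1 or the inhibitor-treated replicate 2, under library totals, with no filter and in DESeq2, and 0.00 in NCI-H1944. POLR1F, a stalk subunit, and POLR1H, which takes part in RNA cleavage, passed the test in neither line, with log2 fold changes of -0.05 and -0.11 in NCI-H1944 and -0.11 and 0.05 in NCI-H647.

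**Figure D2:**
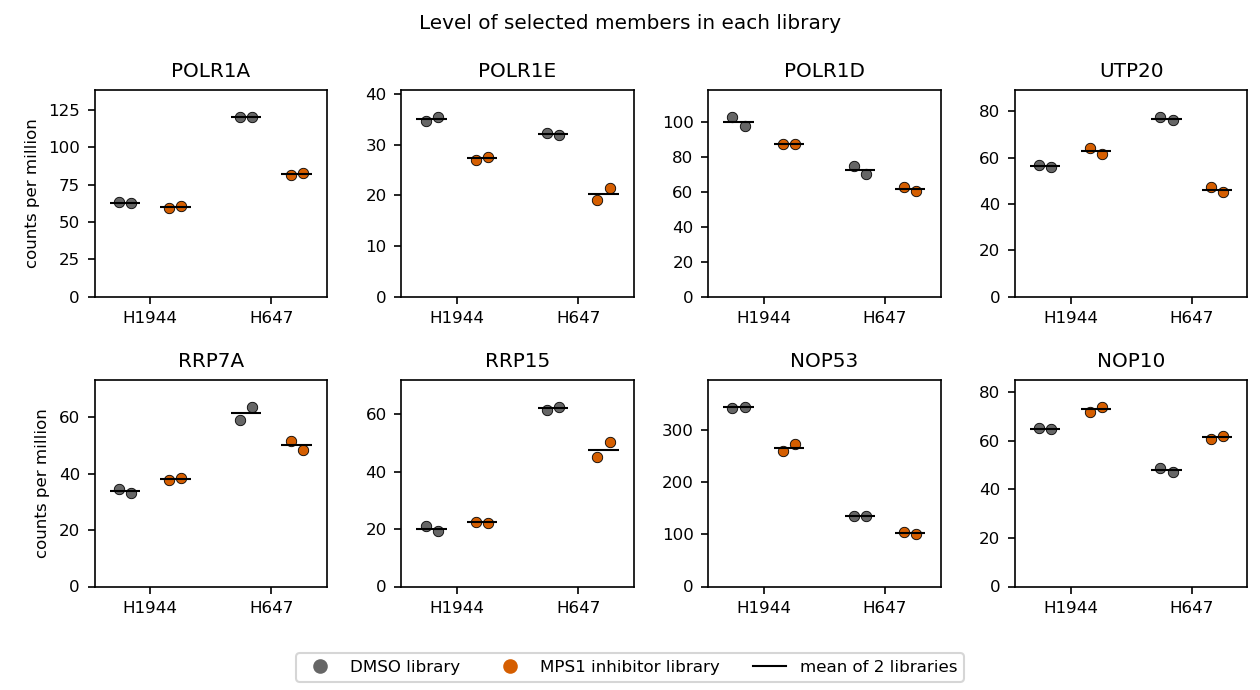
Level in CPM (y axes, each from 0) of 8 genes in every library, grouped by line (x axis). Grey points are DMSO libraries, orange points inhibitor libraries and bars the mean of 2 libraries; POLR1E and NOP53 are lower after the inhibitor in both lines, and UTP20 and RRP7A are higher in H1944 and lower in H647.

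Among 21 genes of the SSU processome and 40S subunit, 4 rose and 1 fell in NCI-H1944, and of the 20 tested in NCI-H647, 5 rose and 8 fell. These are 23.8% and 65% of the genes tested, beside 26.0% and 54.4% of all genes, and the medians were 0.03 and -0.09 on the log2 scale. UTP6 and UTP25 rose in both lines, NOP14 fell in both, and UTP20 and RRP7A had calls of opposite direction.

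UTP20, a very large scaffold protein of the processome, lies on chromosome 12 at 101280105 to 101386618. It measured 56.8 and 55.7 CPM in NCI-H1944 controls and 64.2 and 61.6 CPM after the inhibitor. In NCI-H647 it measured 77.6 and 76.0 CPM in controls and 47.2 and 45.1 CPM after the inhibitor. The groups did not overlap in either line, with the treated libraries above the controls in NCI-H1944 and below them in NCI-H647. The log2 fold change was 0.16 ± 0.05 (edgeR adjusted p = 0.0172) in NCI-H1944 and -0.73 ± 0.05 (edgeR adjusted p = 1.84e-08), a 1.66-fold decrease, in NCI-H647. The call in NCI-H1944 was lost without DMSO replicate 2, without the inhibitor-treated replicate 1, in DESeq2 and with no filter, while that in NCI-H647 held in every alternative run.

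RRP7A, a processome protein needed for processing of the 18S rRNA, showed the same pair of directions. Its levels were 34.5 and 33.2 CPM against 37.7 and 38.5 CPM in NCI-H1944, and 59.1 and 63.7 CPM against 51.7 and 48.5 CPM in NCI-H647. Neither line's groups overlapped. The log2 fold change was 0.17 ± 0.06 (edgeR adjusted p = 0.0382) in NCI-H1944, where leaving out any 1 of the 4 libraries, library totals, no filter or DESeq2 ended the call, and -0.29 ± 0.06 (edgeR adjusted p = 0.000498) in NCI-H647. A near-identical copy, RRP7BP, was counted at 100 to 137 reads per NCI-H1944 library and 73 to 106 per NCI-H647 library, so some reads could have been split between them.

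UTP6, a processome subunit, measured 48.3 and 42.8 CPM against 55.1 and 50.5 CPM in NCI-H1944 and 48.8 and 46.8 CPM against 59.4 and 54.9 CPM in NCI-H647. UTP25 measured 54.3 and 54.2 CPM against 61.3 and 58.3 CPM, and 34.9 and 37.0 CPM against 46.2 and 46.3 CPM. Treated libraries of both genes were above the controls in both lines, with no overlap. The log2 fold changes of UTP6 were 0.21 ± 0.06 (edgeR adjusted p = 0.0180) and 0.26 ± 0.06 (edgeR adjusted p = 0.00107). Those of UTP25 were 0.14 ± 0.05 (edgeR adjusted p = 0.0382) and 0.36 ± 0.05 (edgeR adjusted p = 3.92e-05). In NCI-H1944 both calls were lost without DMSO replicate 2, without the inhibitor-treated replicate 1 and with no filter, and that of UTP25 also without DMSO replicate 1, under library totals and in DESeq2. NOP14, which helps assemble the 40S precursor, fell by 0.18 (edgeR adjusted p = 0.00671) and by 0.27 (edgeR adjusted p = 0.000399) on the log2 scale, and its NCI-H1944 call was lost with no filter.

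UTP3, UTP11 and RRP12 rose in NCI-H647 by 0.17 to 0.27 on the log2 scale. The UTP11 call was lost without the inhibitor-treated replicate 1, with no filter and in DESeq2, and the RRP12 call in DESeq2. NOL10, UTP14A, NOP9, UTP23 and UTP15 fell there by 0.16 to 0.25. Of these, calls were lost for UTP15 without either DMSO replicate or the inhibitor-treated replicate 1, for UTP23 without the inhibitor-treated replicate 1, for NOP9 without the inhibitor-treated replicate 2 and for NOL10 without DMSO replicate 1. In DESeq2 the calls of UTP14A, NOP9, UTP23 and UTP15 were lost, under library totals those of UTP23 and UTP15, and with no filter that of UTP15. UTP23 overlaps RAD21 and EIF3H on the opposite strand, with 1538% and 1139.9% of its counts. Both fell in NCI-H647, by 0.34 and by 0.17 on the log2 scale (edgeR adjusted p = 1.29e-06 and 0.00109). With the strand setting not given, the value of UTP23 is uncertain. NOL6, NOL7, NOL11, RRP9, RRP36, UTP4 and UTP18 passed the test in neither line.

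UTP14C, a retrocopy of UTP14A, had 25 and 140 counts in the NCI-H1944 controls and 26 and 162 after the inhibitor. Both replicate 1 libraries were low and both replicate 2 libraries high, so the groups overlapped. UTP14A had 1094 to 1220 counts in the same libraries, with no such split.

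Of the 3 core snoRNP genes, 1 passed the test in NCI-H1944 and 3 in NCI-H647. These are 33.3% and 100%, beside 26.0% and 54.4% of all genes. NOP10, a small protein of the H/ACA snoRNPs and of telomerase, lies on chromosome 15 at 34339159 to 34343180 and was the highest of all 45 genes per length of exon in both lines. It measured 65.2 and 64.7 CPM against 72.05 and 74.1 CPM in NCI-H1944, and 48.7 and 47.2 CPM against 60.9 and 62.1 CPM in NCI-H647. Both treated libraries were above both controls in each line. Its log2 fold change was 0.17 ± 0.04 (edgeR adjusted p = 0.00758) and 0.36 ± 0.05 (edgeR adjusted p = 2.69e-05). NOP56 and NOP58 are partner proteins of the box C/D snoRNPs. In NCI-H647, NOP56 fell from 87.3 and 86.98 CPM to 74.97 and 73.2 CPM, while NOP58 measured 101.9 and 118.8 CPM in controls and 126.7 and 120.9 CPM after the inhibitor. NOP56 had clear separation and NOP58 a gap smaller than the spread of its controls. Their log2 fold changes were -0.23 ± 0.05 (edgeR adjusted p = 0.00108) and 0.17 ± 0.06 (edgeR adjusted p = 0.0343), and the NOP58 call was lost without DMSO replicate 1 or either treated library, with no filter and in DESeq2.

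Of 10 genes of 60S assembly and processing of the internal transcribed spacers (ITS), 2 fell and none rose in NCI-H1944, and 4 fell and 1 rose in NCI-H647. These are 20% and 50%, beside 26.0% and 54.4% of all genes, and their medians were -0.07 and -0.10 on the log2 scale.

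NOP53, which brings the RNA exosome to the 60S precursor, lies on chromosome 19 at 47745546 to 47757058. It measured 342.0 and 345.5 CPM in NCI-H1944 controls and 259.8 and 273.7 CPM after the inhibitor. In NCI-H647 it measured 134.7 and 134.6 CPM in controls and 104.7 and 101.4 CPM after the inhibitor. All treated libraries were far below their controls in both lines. The log2 fold change was -0.37 ± 0.03 (edgeR adjusted p = 2.73e-07) and -0.39 ± 0.05 (edgeR adjusted p = 4.34e-06), a 1.29-fold and a 1.31-fold decrease, and the difference between the lines was -0.04 ± 0.05 (edgeR adjusted p = 0.530).

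NOL9, the kinase that acts on the cut ITS2 end, measured 14.1 and 12.8 CPM against 14.99 and 13.8 CPM in NCI-H1944, where the groups overlapped, and 59.5 and 61.4 CPM against 46.4 and 43.8 CPM in NCI-H647. RRP15, a 60S assembly factor, measured 20.9 and 19.5 CPM against 22.5 and 22.3 CPM in NCI-H1944, and 61.5 and 62.7 CPM against 45.2 and 50.2 CPM in NCI-H647. Both genes had treated libraries clearly below the controls in NCI-H647 alone, where the log2 fold changes were -0.42 ± 0.05 (edgeR adjusted p = 8.27e-06) and -0.38 ± 0.06 (edgeR adjusted p = 4.49e-05). In NCI-H1944 they were 0.10 ± 0.09 and 0.15 ± 0.07, with edgeR adjusted p of 0.493 and 0.170.

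NOP2, a methyltransferase of 28S rRNA, went the other way in NCI-H647, from 51.8 and 52.0 CPM in controls to 70.7 and 64.6 CPM after the inhibitor. Treated libraries were well above the controls, with a log2 fold change of 0.38 ± 0.06 (edgeR adjusted p = 3.34e-05). In NCI-H1944 it measured 111.1 and 107.6 CPM against 113.6 and 115.9 CPM, a log2 fold change of 0.07 ± 0.04 (edgeR adjusted p = 0.210). RRP1B fell in both lines, by 0.22 (edgeR adjusted p = 0.000394) and by 0.19 (edgeR adjusted p = 0.00413) on the log2 scale. NOP16, NOL8, NOL12, RRP1 and RRP8 passed the test in neither line.

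The symbol rule also took in NOL3, NOL4 and NOL4L, whose names match although they are not placed in a ribosome assembly step here. NOL3, an inhibitor of cell death, passed the test in neither line, with log2 fold changes of -0.17 in NCI-H1944 and 0.21 in NCI-H647. NOL4L rose in NCI-H647 by 0.25 on the log2 scale (edgeR adjusted p = 0.000101). NOL4 had 44 and 32 counts in NCI-H1944 controls and 21 and 22 after the inhibitor (edgeR adjusted p = 0.0848).

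Per kilobase of exon, taken from GENCODE v29, NOP10 stood at 117.2 CPM per kb in NCI-H1944 controls and 86.5 CPM per kb in NCI-H647 controls. NOP53 came next in NCI-H1944 at 64.4 CPM per kb and stood at 25.2 CPM per kb in NCI-H647. Among the RNA polymerase I subunits POLR1E was the highest in both lines, at 14.0 and 12.8 CPM per kb. Levels in the controls ran from 0.967 to 343.8 CPM in NCI-H1944, with a median of 37.9 CPM against 15.3 CPM for all genes tested. In NCI-H647 they ran from 10.96 to 174.8 CPM among the tested members, with a median of 51.7 CPM against 18.8 CPM.

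All 10 genes called in NCI-H1944 were also called in NCI-H647, where 2880 of 3910 such calls were shared among all genes tested in both. Of those 10, 8 had the same direction, which is 80% of the NCI-H1944 calls and 28.6% of the NCI-H647 calls, against 63.4% and 33.4% for all 12887 genes tested in both. UTP6, UTP25 and NOP10 rose in both lines, and NOP53, POLR1E, RRP1B, POLR1D and NOP14 fell in both. Across the 43 genes the log2 fold changes of the lines had a Pearson r of 0.34 and a Spearman rho of 0.29, against 0.42 and 0.44 across all genes, which are descriptions since genes are not independent replicates.

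The difference between the lines was tested as the interaction term of a joint fit. It passed for 13 of 43 genes (30.2%), 4 with a higher and 9 with a lower change in NCI-H647, where 40.1% of all genes passed, 17.4% higher and 22.7% lower. The median difference was -0.06, against -0.04 over all genes. UTP20 had the smallest adjusted p, with a difference of -0.92 ± 0.08 (edgeR adjusted p = 2.88e-09), then POLR1A, RRP15 (-0.55 ± 0.09, edgeR adjusted p = 3.24e-05), RRP7A (-0.49 ± 0.09, edgeR adjusted p = 0.000104) and NOL9 (-0.54 ± 0.10, edgeR adjusted p = 0.000112). The count was 8 without the inhibitor-treated replicate 1 of NCI-H647 and 7 in DESeq2, and scaling by library totals gave 6 higher and 6 lower. Since kit, sequencer and table differ with the line, they cannot be told apart here from a difference between the cells.

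**Figure D3:**
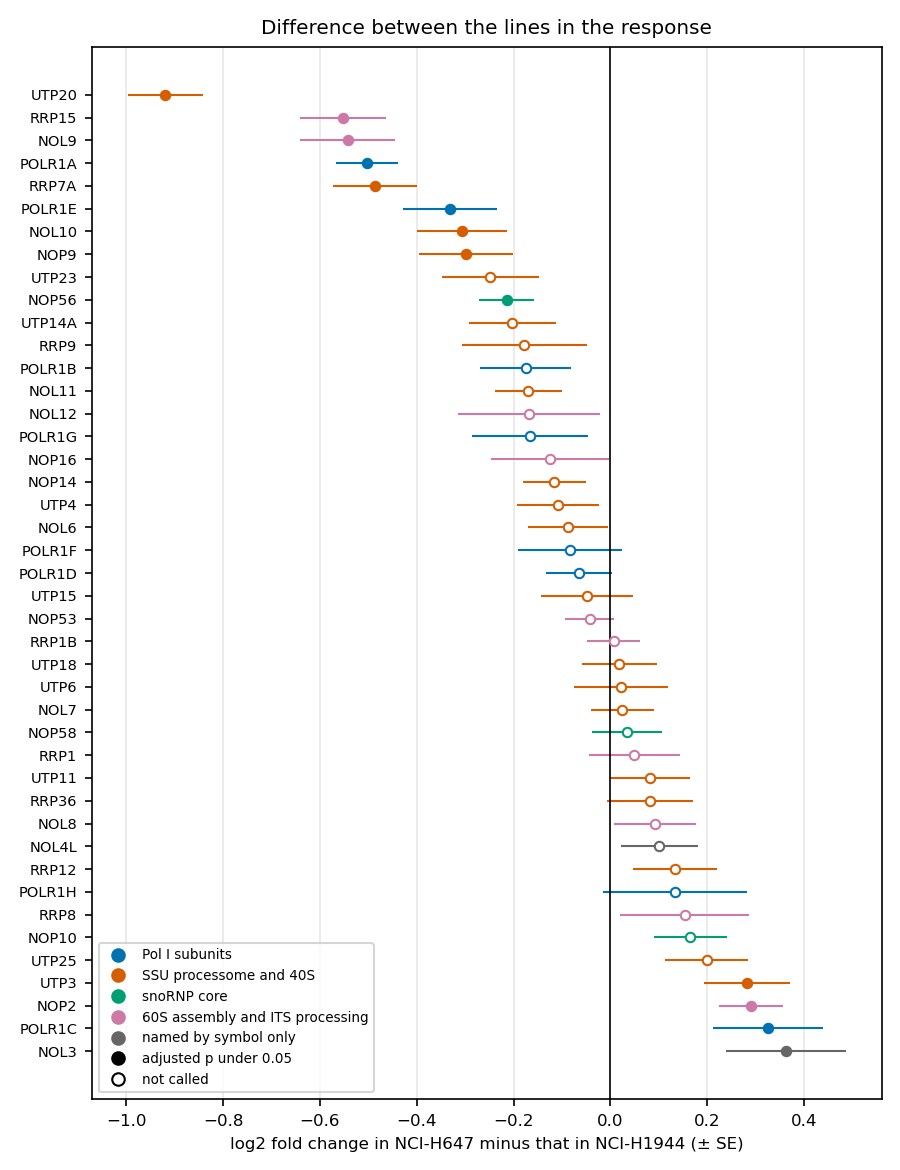
Difference in log2 fold change, NCI-H647 minus NCI-H1944 (x axis), with its standard error for the 43 genes tested in both lines (y axis), coloured by role. Filled points passed an adjusted p of 0.05; UTP20 lies farthest to the left at -0.92, and 4 filled points lie to the right of 0.

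Genes outside the 45 that act in the same route were taken from fixed lists, whose counts stand beside 13.6% higher and 12.4% lower of all genes in NCI-H1944 and 27.3% higher and 27.0% lower in NCI-H647. Among 8 RNA polymerase I factors, 1 rose and 1 fell in NCI-H1944, and 3 rose and 2 fell in NCI-H647. UBTF, which coats the ribosomal DNA, measured 112.2 and 110.5 CPM against 89.2 and 92.8 CPM in NCI-H1944, and 96.0 and 101.5 CPM against 77.9 and 79.7 CPM in NCI-H647. RRN3, which links the polymerase to its promoter, measured 70.7 and 65.9 CPM against 85.2 and 80.0 CPM, and 36.1 and 31.7 CPM against 44.3 and 46.0 CPM. UBTF was lower and RRN3 higher in every treated library. The log2 fold changes of UBTF were -0.29 ± 0.04 (edgeR adjusted p = 3.20e-05) and -0.33 ± 0.05 (edgeR adjusted p = 8.82e-05), and those of RRN3 were 0.27 ± 0.05 (edgeR adjusted p = 0.000420) and 0.41 ± 0.06 (edgeR adjusted p = 6.27e-05). TAF1D, a subunit of the promoter selectivity factor, rose in NCI-H647 by 0.38, and TAF1B, another, fell by 0.45, a call lost in DESeq2.

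Of 10 other snoRNP genes, 4 fell and none rose in NCI-H1944 (median -0.05), and 8 fell and 1 rose in NCI-H647 (median -0.37). The genes that fell are 40% and 80% of the list, beside 12.4% and 27.0% of all genes. FBL, the methyltransferase of the box C/D snoRNPs, fell by 0.24 and by 0.62 on the log2 scale (edgeR adjusted p = 0.000555 and 5.07e-09). DKC1, the pseudouridine synthase that works with NOP10, had log2 fold changes of -0.13 and -0.16 (edgeR adjusted p = 0.0460 and 0.0186), calls lost without DMSO replicate 1 or the inhibitor-treated replicate 2 in NCI-H1944 and without the inhibitor-treated replicate 1 or under library totals in NCI-H647, in DESeq2 in both lines and with no filter in NCI-H1944. NHP2, another H/ACA protein, fell by 0.24 and by 0.52, and its NCI-H1944 call was lost without DMSO replicate 2 and with no filter. NOP10 rose in both lines while the levels of FBL, DKC1 and NHP2 were lower. GAR1, of the same list, passed the test in neither line, with log2 fold changes of 0.05 and 0.09. SHQ1 was the gene of the list that rose in NCI-H647, by 0.25 (edgeR adjusted p = 0.0432), a call lost in 5 alternative runs.

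All 4 nucleolar scaffold genes fell in NCI-H647 (median -0.29) and 1 fell in NCI-H1944 (median -0.08). NPM1, an abundant nucleolar chaperone, measured 837.5 and 844.4 CPM against 747.6 and 700.6 CPM in NCI-H1944, and 1900 and 2078 CPM against 1180 and 1201 CPM in NCI-H647. It was lower in every treated library, by 0.22 (edgeR adjusted p = 2.59e-05) and by 0.74 (edgeR adjusted p = 2.29e-10) on the log2 scale. NCL, nucleolin, had a log2 fold change of -0.05 (edgeR adjusted p = 0.161) in NCI-H1944 and fell by 0.32 (edgeR adjusted p = 1.29e-06) in NCI-H647. The interaction passed for NPM1 (-0.55, edgeR adjusted p = 3.11e-08), NCL (-0.30, edgeR adjusted p = 3.37e-05) and FBL (-0.41, edgeR adjusted p = 2.67e-06).

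Other SSU processome and 40S genes numbered 26, of which 2 rose and none fell in NCI-H1944, and 5 rose and 5 fell in NCI-H647. HEATR1, NAT10 and WDR3 fell in NCI-H647 by 0.58, 0.39 and 0.33, and RIOK2, PNO1 and DDX52 rose by 0.42, 0.40 and 0.35. Of 38 other 60S genes, 1 rose and 7 fell in NCI-H1944, and 8 rose and 14 fell in NCI-H647. MDN1, a giant ATPase of 60S maturation, BOP1 and LAS1L, the nuclease that works with NOL9, fell in NCI-H647 by 0.66, 0.58 and 0.56, while ZNF622, GNL2 and SBDS rose by 0.64, 0.45 and 0.44. Of 13 RNA exosome genes, none rose and 2 fell in NCI-H1944, and 2 rose and 8 fell in NCI-H647. EXOSC2, EXOSC9 and EXOSC8 fell in NCI-H647 by 0.73, 0.65 and 0.58, while EXOSC4 and DIS3 rose by 0.55 and 0.32. Of 11 RNA polymerase III subunits, 1 fell and none rose in NCI-H1944, and 3 rose and 3 fell in NCI-H647, led by POLR3D (0.42) and POLR3G (-0.66).

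The MYC network was also read, since MYC drives many ribosome genes. MYC measured 144.1 and 147.1 CPM against 155.1 and 158.4 CPM in NCI-H1944, and 181.3 and 178.0 CPM against 176.6 and 182.8 CPM in NCI-H647. Its log2 fold changes were 0.11 (edgeR adjusted p = 0.0373, lost without either DMSO replicate or the inhibitor-treated replicate 2, under library totals, with no filter and in DESeq2) and 0.00 (edgeR adjusted p = 0.998). MXD1 rose by 1.00 and 0.78 and MXD3 fell by 1.05 and by 0.97 in the 2 lines. MXD4 fell by 0.57 in NCI-H1944 and rose by 0.67 in NCI-H647, a difference of 1.22 ± 0.13 (edgeR adjusted p = 1.29e-07). MAX had a log2 fold change of 0.11 in NCI-H1944 (edgeR adjusted p = 0.234) and rose by 0.63 in NCI-H647 (edgeR adjusted p = 1.47e-06). The interaction passed for MAX (0.50, edgeR adjusted p = 0.000694) and for MYC (-0.13, edgeR adjusted p = 0.0358). MXD proteins pair with MAX and compete with MYC at E-boxes. Of the 9 genes tested, 2 rose and 3 fell in NCI-H1944, and 6 rose and 1 fell in NCI-H647.

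**Figure D4:**
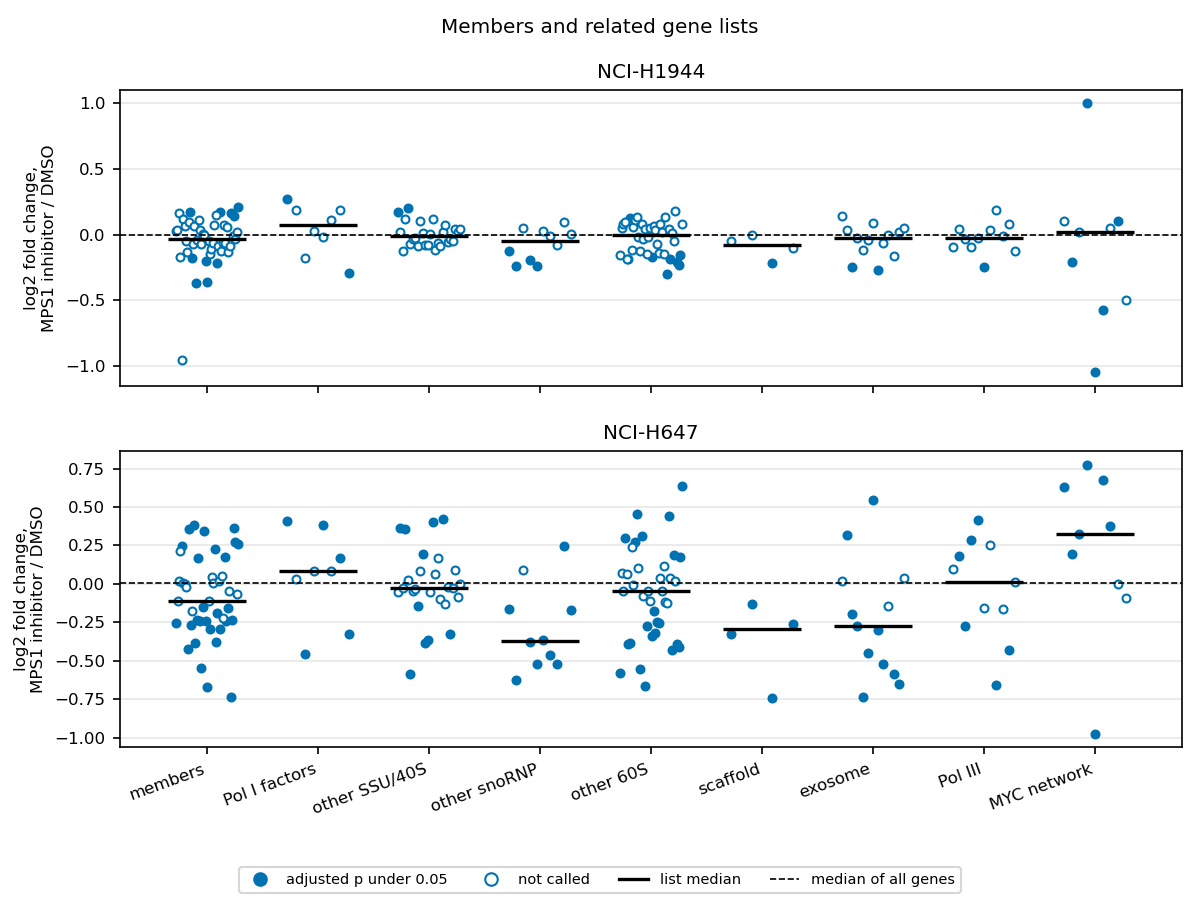
Log2 fold change of the inhibitor against DMSO (y axis) for the 45 genes and 8 related lists (x axis) in NCI-H1944 (top) and NCI-H647 (bottom), on separate scales. Filled points passed an adjusted p of 0.05, bars are list medians and the dashed line is the median of all genes; in NCI-H647 the other snoRNP genes have a median of -0.37, the nucleolar scaffold genes -0.29 and the MYC network 0.33.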

How the data were processed

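RNA was sequenced in 8 libraries, 2 per treatment in each of 2 lines. The deposited values are raw, whole-number read counts for each gene, with a separate table for each line. Tools named in the submitters' processing notes are STAR, HISAT2, featureCounts and StringTie, beside the trimmers cutadapt, Trimmomatic and Trim Galore, on the build GRCh38. No version, annotation release or strand setting was found in the sources used here, so overlapping genes and near copies are uncertain. Columns were assigned to samples by their names.

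Within each line, edgeR 4.0.16 in R 4.3.3 was run on the whole table of counts (filterByExpr with minimum count 10 and total 15, TMM, quasi-likelihood F test, Benjamini-Hochberg adjustment, threshold 0.05). Standard errors were taken as the absolute log2 fold change over the root of F. The interaction was fitted over all 8 libraries on the 12887 symbols that passed in both lines. With 2 libraries per group, precision is limited. Floors of 3 counts cover counting error only. Exon lengths are merged GENCODE v29 exons.

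Alternatives were DESeq2 1.42.0, RLE size factors, library totals, no filter, the replicate number as a block and leaving out each library. Same-numbered libraries did not deviate together (r = 0.04 and -0.03 across genes), so the numbers were not treated as pairs. Replicates differed by more than sampling noise (chi-square per degree of freedom 1.98 to 3.93). The fits were tested on simulated counts.

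Named genes were the 5 members with the smallest adjusted p in each direction per line, all polymerase I subunits, the 5 smallest interaction p, members with opposite calls, up to 3 called genes per direction of each related list, and TTK, MYC, UBTF, RRN3, FBL, NCL, NPM1 and DKC1; other members are named with their role group. One listed marker is not reported here. The members and lists were chosen with earlier results of these data known. TTK itself fell by 0.71 and by 0.72 on the log2 scale in NCI-H1944 and NCI-H647.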

Additional observations from a re-analysis of the deposited data

Results flagged for a closer look

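The change differed between the lines for 13 genes by the interaction test of edgeR's joint fit, given as the log2 fold change in NCI-H647 minus that in NCI-H1944. It was lower in NCI-H647 for 9. UTP20 differed by -0.92, RRP15 by -0.55, NOL9 by -0.54, POLR1A by -0.50 and RRP7A by -0.49. POLR1E differed by -0.33 (adjusted p = 0.00869), NOL10 by -0.31 (adjusted p = 0.0118), NOP9 by -0.30 (adjusted p = 0.0167) and NOP56 by -0.21 (adjusted p = 0.00436). It was higher in NCI-H647 for NOL3 at 0.36 (adjusted p = 0.0236), POLR1C at 0.32 (adjusted p = 0.0257), NOP2 at 0.29 (adjusted p = 0.00130) and UTP3 at 0.28 (adjusted p = 0.0146). NOL3 passed the test within neither line. POLR1E fell in both lines, and its difference was lost in DESeq2 and without DMSO replicate 1 or the inhibitor-treated replicate 1 of NCI-H647. The differences of NOL3, NOL10 and POLR1C were lost in 4 alternative runs each, those of NOP9 and UTP3 in 3 each and that of NOP56 in 2. The kit and sequencer differ with the line, and their part in these differences cannot be told apart from that of the cells.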

How the results depend on the processing

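Of the calls, 5 of 10 in NCI-H1944 (NOP10, NOP53, POLR1D, POLR1E and RRP1B), 18 of 28 in NCI-H647 and 6 of 13 between the lines (NOL9, NOP2, POLR1A, RRP15, RRP7A and UTP20) held in every alternative run. The cause of the lost calls was not tested, also where 1 library was left out. In NCI-H1944 the count of called genes was 5 with no filter, 7 in DESeq2 (2 higher, 5 lower) and from 6 to 10 with 1 library left out, and the median then ran from -0.038 to -0.0092. In NCI-H647 the count was 25 under library totals, 23 with no filter, 19 in DESeq2 and 23 to 29 with 1 library left out, and the median was -0.062 under library totals and ran from -0.11 to -0.060 with 1 library left out. Between the lines the count was 7 in DESeq2 and 8 to 15 with 1 library left out. With the replicate number as a block, the counts were 11, 29 and 14, and no named member lost its call. Scaling by library totals shifts all genes of a table alike, so the median it gives is not a change particular to the members. Among the values recomputed, signs changed only for some that passed no test. These were POLR1B in NCI-H1944 (-0.0082 under library totals, and -0.090 to 0.092 with 1 library left out), POLR1C (-0.045 to 0.037), POLR1H (-0.24 to 0.027) and POLR1F (-0.11 to 0.0093) there with 1 library left out, and MYC in NCI-H647 (0.048 under library totals, and -0.028 to 0.020 with 1 library left out). UTP14C and NOL4 had 0 or 1 counts in each NCI-H647 library, too few for a test.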
